A study of Mus musculus with 96 samples.

Results

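The 9 genes described here mark inhibitory interneurons, the local neurons that release GABA: Gad1, Gad2, Sst, Vip, Npy, Cck, Pvalb, Calb2 and Lamp5. They were chosen by name, as 9 of the 35486 genes in the count table, and are followed over every region, age and treatment. Gene expression was measured by bulk mRNA sequencing in 96 libraries from 38 male C57BL/6J mice. A first experiment sequenced the cerebellum, cortex and hippocampus of each of 29 mice, and a second one the hippocampus of 9 further mice. In the first experiment, 4 untreated (naive) mice were 2 months old and 3 were 18 months old. Mice of 18 months were injected for 7 days in a row with PBS, a salt solution without plasma (4 mice), or with plasma of young mice (5 mice), and mice of 22 months with PBS (3 mice) or plasma (3 mice) in the same way. Mice of 19 months were injected for 24 days with PBS (4 mice) or plasma (3 mice). The second experiment held mice of 18 months with 7 days of PBS (4 mice) or plasma (5 mice). The youngest mice are 2 months old by their labels and 3 months old by the description of the series. All groups share 1 sex and 1 strain, and each plasma group is compared with PBS mice of the same age.

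GABA is made from glutamate by 2 enzymes, GAD67 and GAD65, the products of Gad1 and Gad2. In the cortex and hippocampus, interneurons are divided by what else they make: the peptides somatostatin (Sst), vasoactive intestinal peptide (Vip), neuropeptide Y (Npy) and cholecystokinin (Cck), the calcium-binding proteins parvalbumin (Pvalb) and calretinin (Calb2), and the membrane protein LAMP5 (Lamp5). Parvalbumin and somatostatin cells come from the medial ganglionic eminence of the embryonic forebrain, and vasoactive intestinal peptide cells and many Lamp5 cells from the caudal one. None of these genes is confined to interneurons in the whole brain. Purkinje cells of the cerebellum make GABA and parvalbumin, cerebellar granule cells, which are excitatory, make calretinin, and cortical pyramidal cells express Cck and Lamp5. In bulk tissue, fewer cells of a type and less RNA per cell cannot be told apart.

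The start regions of 8 of the 9 genes were available from RefSeq (GRCm38.p6), as the 250 bases before the start of transcription in RefSeq. Parts of 4 of them are shown because the letters TGACG, the core of the cyclic AMP response element through which CREB acts on genes such as Sst, were found in 4 of the 8 genes, on either strand. Capitals mark that motif, on the gene's own strand as TGACG or, read on the other strand, as CGTCA, and the full palindrome TGACGTCA in Sst. Positions are counted back from the RefSeq start, which can differ from the GENCODE gene bounds given below, so that the stretches of Sst and Gad2 lie inside those bounds.
Sst: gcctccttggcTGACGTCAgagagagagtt
Vip: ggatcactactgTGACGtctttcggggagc
Gad2: ccatttcccttcCGTCActctctcatctcc
Cck: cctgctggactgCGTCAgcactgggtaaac
These lie at chr16:23890874-23890903 on the minus strand (Sst, motif at -48), chr10:5639127-5639156 on the plus strand (Vip, -79), chr2:22622282-22622311 on the plus strand (Gad2, -33) and chr9:121495724-121495753 on the minus strand (Cck, -47). TGACG occurs in 17.8% of all 32851 RefSeq stretches of that length and TGACGTCA in 1.55%. Both strands were also searched for TATAAA, found in 2 of the 8 genes (Gad1 and Vip; 12.4% of all stretches), CCAAT (3 genes; 33.8%), GGGCGG (2 genes; 32.7%), CANNTG (6 genes; 66.2%) and TAATTA, the core that distal-less factors bind (0 genes; 4.84%). The shares of all stretches are per stretch, while the 8 genes have 10 stretches and a gene counts if any of its stretches matches. Per stretch, TGACG was found in 4 of these 10 and CANNTG in 7. The motifs shown were picked after several had been searched, and a match describes letters, not a used site.

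Depth ran from 851288 to 23768385 counts per library, with a median of 8889509. Levels are given as CPM (counts per 1000000 counts of the library), and values compared between genes are divided by exon length in kilobases. Changes are log2 fold changes ± SE from edgeR's quasi-likelihood test, and a gene passes when its p adjusted over all genes of the fit (Benjamini-Hochberg) is under 0.05. All 9 genes passed the filter on low counts in each of the 25 comparisons. Cerebellar and forebrain libraries matched their labels. The median of Gabra6, which encodes a GABA-A subunit of granule cells, was 405 CPM in cerebellar libraries and 0 in both forebrain regions. The 5 distal-less genes, which forebrain interneurons keep on, summed to 0 to 1.17 CPM in the cerebellum. Their sums were 51.2 to 72.5 CPM in the cortex and 48.1 to 80.3 in the hippocampus. These genes do not separate cortex from hippocampus. A total of 8 libraries were far lower than the rest in excitatory neuron markers of their labelled region, and 7 libraries, 1 of them among those 8, held fewer than 2500000 counts. A further number in the sample titles, which the labels do not explain, differs between most groups. It cannot be told apart from the groups in the comparisons of ages, of PBS with no injection and of long plasma with long PBS, is shared in part by the PBS and plasma groups at 18 and at 22 months, and is the same throughout the second experiment. P values measure the spread between mice.

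The first question was how the 9 genes differ between regions, over the 29 mice of the first experiment. In the forebrain regions, the peptide genes and Lamp5 were higher, and in the cerebellum, Gad1, Pvalb and Calb2 were higher. Of the 9 genes, 8 passed between cortex and cerebellum (5 higher and 3 lower in the cortex), 8 between hippocampus and cerebellum (5 higher and 3 lower in the hippocampus) and 8 between hippocampus and cortex (1 higher and 7 lower in the hippocampus). Most genes differ between regions: of all genes tested, 83.3%, 84.1% and 60.3% passed in these 3 comparisons, so that the counts of members are near or not far above the background. The median log2 change of the 9 genes was 3.19 between cortex and cerebellum and 2.25 between hippocampus and cerebellum, beside -0.02 and -0.02 over all genes. CPM differences between forebrain and cerebellum lie below the tested ones by 0.17 (cortex) and 0.15 (hippocampus) on the log2 scale, because the TMM factors differ between regions.

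**Figure D1:**
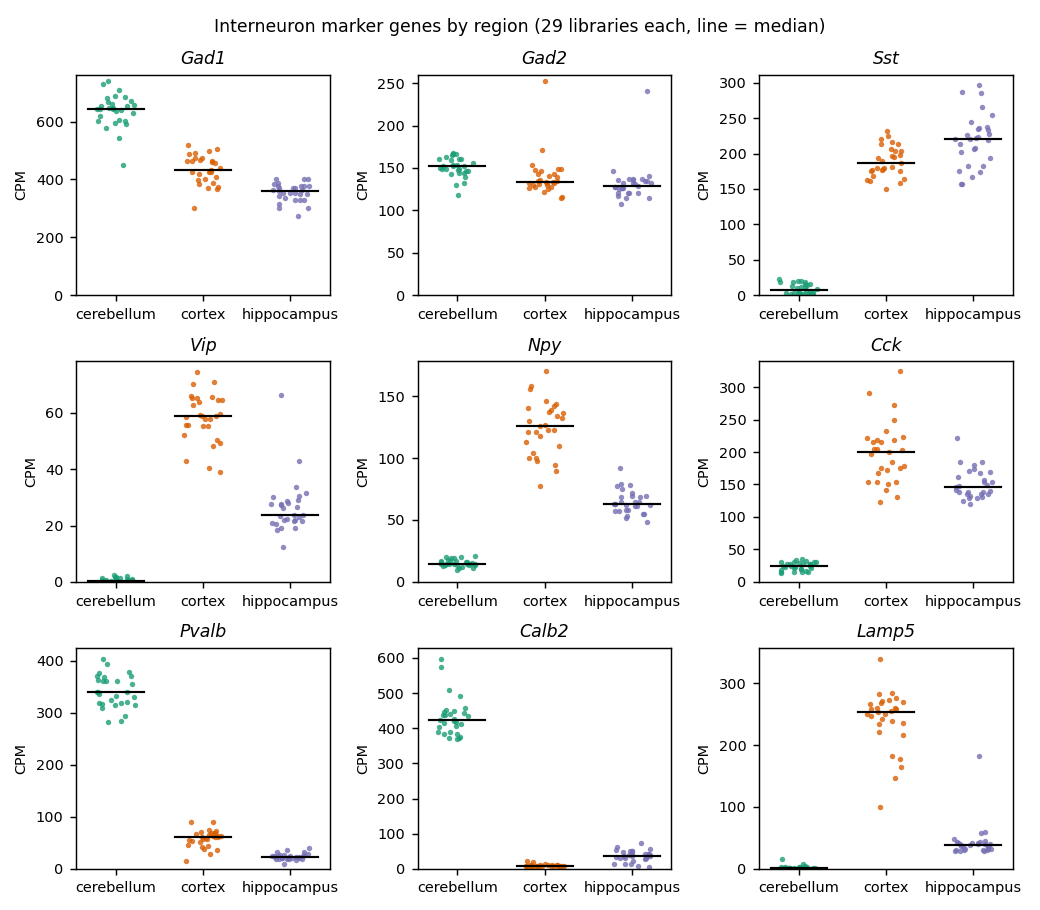
CPM (linear axes from 0) of the 9 genes in the cerebellum, cortex and hippocampus. Each point is 1 of the 29 libraries of a region in the first experiment and the line is their median. Sst, Vip, Npy, Cck and Lamp5 lie higher in every cortical library than in any cerebellar library, while Pvalb and Calb2 lie higher in the cerebellum.

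Gad1 (chromosome 2, 70553072 to 70602014 in GRCm38, plus strand), which supplies most GABA in the cell body, had 451 to 740 CPM in the cerebellum (median 645), 301 to 520 in the cortex (median 433) and 274 to 403 in the hippocampus (median 359). It was lower in the cortex than in the cerebellum by a log2 change of -0.39 ± 0.03 (adjusted p = 8.98e-18), and higher in the cortex than in the cerebellum in 1 of 29 mice. The hippocampus lay below the cortex by a further -0.31 ± 0.03, with adjusted p = 7.46e-13. Per kilobase, the medians of Gad1 were 84.5, 56.7 and 47 CPM. The order was cerebellum, cortex, hippocampus, and the ranges of neighbouring regions overlapped.

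Gad2 (chromosome 2, 22622205 to 22693874, plus strand), whose enzyme sits at nerve endings, was close to equal in the 3 regions. Its medians were 152 CPM in the cerebellum (118 to 168), 133 in the cortex (115 to 253) and 129 in the hippocampus (108 to 241). The fitted difference between cortex and cerebellum was 0.05 ± 0.04 (adjusted p = 0.27) on the TMM scale. On the CPM scale, Gad2 was higher in the cortex in 4 of 29 mice and its median there was 0.876 times that of the cerebellum, so that the direction differs between scales. Between hippocampus and cerebellum it was -0.05 ± 0.04 (adjusted p = 0.256), and between hippocampus and cortex -0.10 ± 0.04 (adjusted p = 0.0333). That last call was lost without the 22-month PBS mice (-0.05, adjusted p = 0.347), without the naive 18-month mice (adjusted p = 0.0627) or without the 18-month plasma mice (adjusted p = 0.127). Between hippocampus and cerebellum, Gad2 passed when the libraries low in own-region markers were left out (-0.10, adjusted p = 0.00246).

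Sst (chromosome 16, 23889573 to 23890958, minus strand), the peptide of dendrite-targeting interneurons, had a median of 7.79 CPM in the cerebellum (0.919 to 23.1), 187 in the cortex (150 to 232) and 221 in the hippocampus (157 to 297). Every mouse had more Sst in both forebrain regions than in its cerebellum. The log2 change was 4.81 ± 0.15 for the cortex (adjusted p = 1.37e-41) and 5.00 ± 0.15 for the hippocampus (adjusted p = 1.25e-42). Hippocampus and cortex differed by 0.19 ± 0.11 (adjusted p = 0.135), with the hippocampus higher in 19 of 29 mice, so that their order was not resolved.

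Vip (chromosome 10, 5639218 to 5647617, plus strand), the peptide of interneurons that inhibit other interneurons, was near the limit of detection in the cerebellum, with a median of 0.4 CPM and 0 counts in 12 of 29 libraries. Pooled, the cerebellar libraries held 167 Vip counts in 210208051. The cortex had a median of 58.9 CPM (38.9 to 74.6) and the hippocampus 23.8 (12.5 to 66.4). The cortex exceeded the hippocampus in all but 1 mouse, with a log2 change of -1.17 ± 0.09 for hippocampus minus cortex (adjusted p = 8.35e-18). The exception was naive 2-month replicate 14, whose hippocampal library is described with the age change below.

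Npy (chromosome 6, 49822710 to 49829507, plus strand), a peptide of somatostatin, Lamp5 and other cells, had medians of 14.7 CPM in the cerebellum (9.99 to 20.8), 126 in the cortex (77.2 to 170) and 62.9 in the hippocampus (48.5 to 92.2). Cerebellum and forebrain did not overlap, and the hippocampus lay below the cortex by -0.94 ± 0.05 (adjusted p = 9.81e-26), in 28 of 29 mice. Cck (chromosome 9, 121489824 to 121495694, minus strand), a peptide of basket cells and of many pyramidal cells, had medians of 24.6 CPM (13.8 to 35.3), 200 (123 to 324) and 146 (120 to 222) in the same order of regions. Its difference between hippocampus and cortex was smaller, -0.40 ± 0.08 (adjusted p = 6.56e-06), with overlapping libraries and 5 of 29 mice in the opposite order.

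Pvalb (chromosome 15, 78191114 to 78206400, minus strand), the calcium buffer of fast-spiking interneurons and Purkinje cells, reached a median of 339 CPM in the cerebellum (282 to 404), 61.4 in the cortex (14.2 to 90.6) and 22.3 in the hippocampus (8.32 to 39.7). It was lower than in the cerebellum by -2.40 ± 0.09 in the cortex and by -3.71 ± 0.10 in the hippocampus (adjusted p = 2.11e-37 and 5.84e-47). Calb2 (chromosome 8, 110137502 to 110168210, minus strand), the calcium buffer of cerebellar granule cells, of vasoactive intestinal peptide cells and of hilar mossy cells in the mouse hippocampus, had a median of 423 CPM in the cerebellum (368 to 598), 8.46 in the cortex (5.91 to 21.5) and 37 in the hippocampus (4.95 to 73.5). Among the members, it was the only one that passed as higher in the hippocampus than in the cortex (1.82 ± 0.14, adjusted p = 1.39e-19), in 27 of 29 mice.

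Lamp5 (chromosome 2, 136052239 to 136069917, plus strand), which marks neurogliaform interneurons and upper-layer pyramidal cells, had medians of 1.64 CPM in the cerebellum (0 to 16.4), 254 in the cortex (99.3 to 340) and 38.9 in the hippocampus (29.3 to 182). The hippocampus lay below the cortex by -2.53 ± 0.12 (adjusted p = 1.56e-29), in 28 of 29 mice. Compared per kilobase of exon, the order of the medians also differed between regions. In the cortex, Sst (260 CPM per kilobase), Npy (222) and Cck (153) stood above Lamp5 (86.6), Pvalb (58.9), Gad1 (56.7), Gad2 (22.6), Vip (17.3) and Calb2 (4.85). In the hippocampus, Sst (306), Cck (112) and Npy (111) led, with Cck and Npy inside each other's range. In the cerebellum, Pvalb (325), Calb2 (243) and Gad1 (84.5) led, and Vip (0.117) was lowest.

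Genes that work with the 9 differed between regions in the same comparisons, as most genes did. Of the 11 tested receptors for the members' peptides, 10 were higher and 1 lower in the cortex than in the cerebellum, with a median log2 change of 3.79 beside -0.02 over all genes. The cholecystokinin receptor gene Cckbr (5.01 ± 0.18) and the somatostatin receptor gene Sstr4 (5.00 ± 0.14) were among those higher, and Vipr2, a receptor for vasoactive intestinal peptide, was the lower one (-4.84 ± 0.16). Npy2r, a neuropeptide Y receptor, was higher in the hippocampus than in the cortex by 4.26 ± 0.19. Lhx6, the transcription factor of interneurons from the medial eminence, had a median of 20.1 CPM in the cortex and 0.0765 in the cerebellum. It was higher in the cortex by 7.10 ± 0.12. The sum of the list of medial eminence genes went the other way, with medians of 364 CPM in the cortex and 581 in the cerebellum. Single genes of that list went both ways: Etv1, also listed for granule cells, had medians of 61 and 464 CPM, and Satb1 had 135 and 28.7. Of the 7 genes of GABA packaging, uptake and handling, 1 was higher and 5 lower in the cortex than in the cerebellum, among them Slc32a1, the vesicular GABA transporter (-0.43 ± 0.05). Slc32a1 was also lower in the hippocampus than in the cortex (-0.61 ± 0.06), in the direction of Gad1.

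The comparison of naive mice of 18 and 2 months asked how uninjected animals change with age. Calb2 fell in the cerebellum, and it was 1 of 9 members past the threshold, beside 411 of 17185 genes (2.39%). Calb2 had 445, 492, 508 and 573 CPM in the young mice and 376, 383 and 423 in the older ones. The groups did not overlap, and the means were 505 ± 53 (SD, n = 4) and 394 ± 25.5 (SD, n = 3). The log2 change was -0.39 ± 0.09, with adjusted p = 0.0116. The call was lost without older replicate 3 (adjusted p = 0.0651), older replicate 6 (0.0863) or young replicate 14 (0.062), with changes of -0.36, -0.36 and -0.32. DESeq2 gave adjusted p = 0.00186 and limma-voom with sample quality weights 0.00251.

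Among other genes of the granule cell, Gabra6 went from 503 ± 33.4 CPM (SD, n = 4) to 414 ± 11.5 (SD, n = 3), a log2 change of -0.31 ± 0.06 with adjusted p = 0.00487, and it was the only one of 8 tested granule cell genes, Calb2 apart, to pass. Of the 14 tested GABA-A receptor subunits, 3 fell and none rose, with a median of -0.23 beside 0.01 over all genes; Gabra2 (-0.63 ± 0.13) and Gabra6 were among them. Erbb4, the neuregulin receptor of interneurons, fell by 0.57 on the log2 scale, and Nos1, the neuronal nitric oxide synthase, rose by 0.37 ± 0.09. Summed over the granule cell list, 2590 to 3110 CPM were found in the young and 2500 to 2760 in the older libraries, which overlap. Of the microglial genes 6 of 8 rose, of the oligodendrocyte genes 4 of 7 fell, and the choroid plexus genes summed to 168 to 1900 CPM in the young and 1750 to 2350 in the older libraries. The part of these in the fall of Calb2 was not tested.

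The other groups differed less in the cerebellum. The mean of Calb2 was 437 ± 23.9 CPM (SD, n = 4) in 18-month PBS mice and 385 ± 25.1 (SD, n = 3) in 22-month PBS mice, a log2 change of -0.20 ± 0.09 that did not pass (adjusted p = 0.279). Long plasma mice had 384, 388 and 439 CPM and long PBS mice 441, 442, 448 and 598, which do not overlap, but the change of -0.27 ± 0.09 did not pass either (adjusted p = 0.674). With age, the other 8 members gave no call in the cerebellum, and no member passed in the cortex (21 genes, 0.112%) or in the hippocampus (13 genes, 0.0719%), and 1 of 9 members in each of these had an unadjusted p under 0.05, as had 6.18% (cortex) and 6.39% (hippocampus) of all genes. The differences of the age change between regions gave no call for a member and 0 of 9 at an unadjusted p under 0.05, for Calb2 with 0.09 between cortex and cerebellum and 0.67 between hippocampus and cerebellum. In those 3 tests, 0.0410% (cortex against cerebellum), 0.0513% (hippocampus against cerebellum) and 0% (hippocampus against cortex) of all genes passed, and 5.24%, 8.65% and 4.56% had an unadjusted p under 0.05. The fall of Calb2 is therefore not shown to differ between regions.

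**Figure D2:**
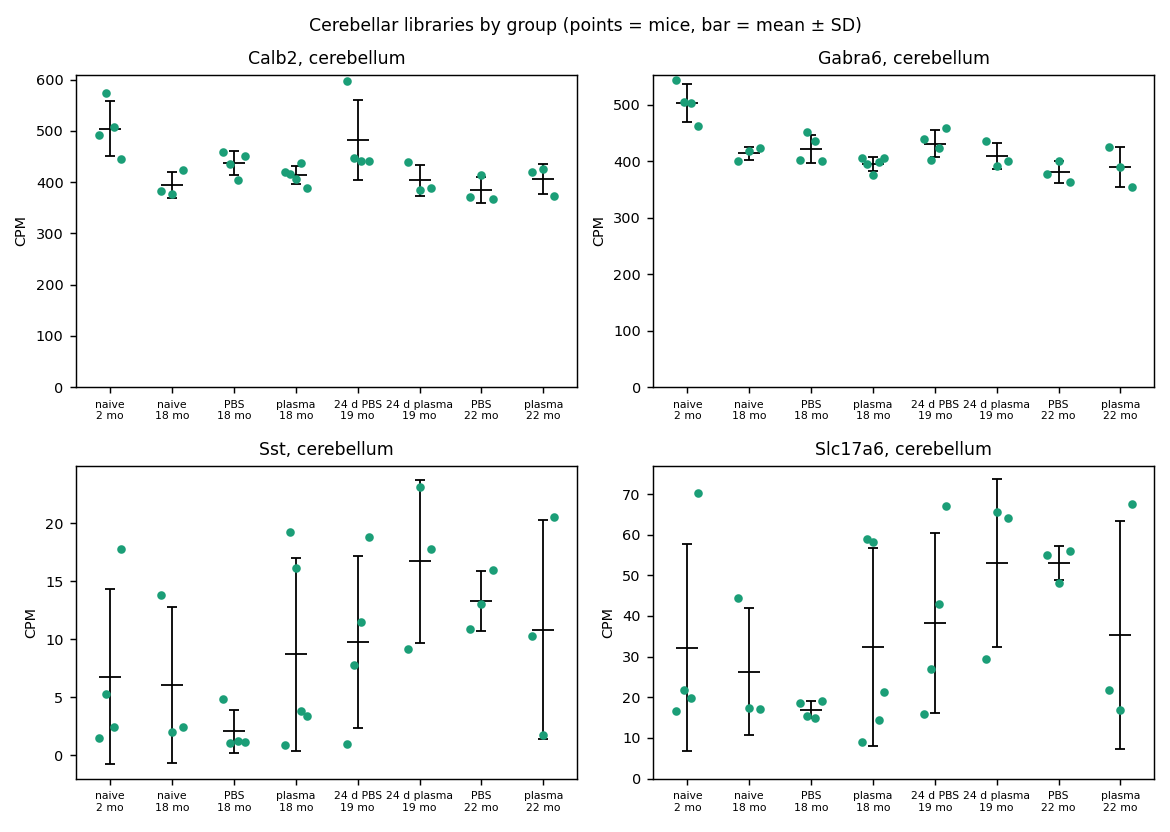
CPM of Calb2, Gabra6, Sst and Slc17a6 in the 29 cerebellar libraries by treatment and age in months (mo), with 24 d for 24 days of injection. Points are mice and bars are mean ± SD. The group means of Calb2 and Gabra6 are highest in naive 2-month mice, while the highest single Calb2 value (598 CPM) is that of a long PBS mouse, and Sst and Slc17a6 are high and low in the same libraries.

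In the hippocampus, Gad1 had 274, 303, 303 and 328 CPM in the naive 2-month mice and 353, 359 and 388 in the naive 18-month mice, without overlap. The change of 0.25 ± 0.07 did not pass over all genes (adjusted p = 0.40). In the cortex, Gad1 changed by 0.23 ± 0.10 (adjusted p = 0.776), with overlapping groups. Lamp5 and Vip in the hippocampus had changes of -0.72 ± 0.38 and -0.54 ± 0.30 (adjusted p = 0.811 and 0.818) that rested on naive 2-month replicate 14. That library had 182 CPM of Lamp5 and 66.4 of Vip, against 30.9, 36.3 and 42.4 of Lamp5 and 20.5, 21.5 and 43 of Vip in the other 3. It also had the lowest level of Prox1, a dentate granule cell factor, at 17.2 CPM beside a median of 78.8. Without it, the changes were 0.37 for Lamp5 and 0.01 for Vip (adjusted p = 0.956 and 1).

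PBS mice of 22 and 18 months gave a second comparison of ages, with no member past the threshold in the cerebellum (27 genes, 0.157%), cortex (1 gene, 0.00533%) or hippocampus (0%; at an unadjusted p under 0.05 lay 7.85% of all genes and 3 of the 9 members). In the cerebellum, 6 of 9 members had an unadjusted p under 0.05, as had 15.2% of all genes, and the widest shifts were in genes that are scarce there. Sst had 1.02, 1.16, 1.26 and 4.86 CPM at 18 months and 10.9, 13 and 16 at 22 months, without overlap, a change of 3.34 ± 0.94 with adjusted p = 0.0922. Vip had 0 counts in all 4 libraries at 18 months and 0.534, 1.13 and 1.33 CPM at 22 months. Pooled over each group, Vip CPM at 22 months was 8.91-fold the CPM that 3 counts would give at 18 months, the floor taken for the zeros. This ratio leaves out the spread between mice, and the tested change did not pass (adjusted p = 0.137). Lamp5 had 0, 0.145, 0.539 and 0.969 CPM at 18 months and 1.87, 2.72 and 4.82 at 22 months (2.48 ± 0.87, adjusted p = 0.157). For Sst, Vip and Lamp5, the 18-month PBS mice had the lowest mean of all cerebellar groups. Their means were 2.07, 0 and 0.413 CPM, beside 6.08, 0.259 and 1.62 in naive mice of 18 months. Those 2 groups overlapped in Sst and Vip but not in Lamp5. The part of this low reference group in the shifts was not tested.

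These 3 genes passed under some settings. Sst (adjusted p = 0.00953) and Vip (0.0435) passed with no filter on low counts. In a fit of these 2 groups alone, Sst (adjusted p = 2.68e-08) and Lamp5 (0.00197) passed. More genes of the whole table passed as well: 312 of 25985 with no filter and 483 of 16380 in the fit of 2 groups. The main fit had 27 of 17185. Slc17a6, the vesicular glutamate transporter that is scarce in the cerebellar cortex, moved with Sst: it had 14.9 to 19 CPM at 18 months and 48.2 to 55.9 at 22 months. It was singled out from the list of thalamic neuron genes after its values were seen. Both genes also differed between mice of 1 group: naive 2-month replicate 20 had 17.8 CPM of Sst and 70.3 of Slc17a6, and replicates 12, 14 and 17 of that group had 1.45, 5.29 and 2.47 of Sst and 16.7, 21.9 and 19.8 of Slc17a6. The part of Slc17a6 in the change of Sst was not tested. The granule cell genes summed to 2770 to 2910 CPM at 18 months and 2420 to 2590 at 22 months, also without overlap, and their part was not tested. The distal-less genes summed to 0 CPM in all 7 libraries.

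In the cortex, PBS mice of 22 months had lower values than at 18 months in 7 of 9 members, with a median of -0.37 beside 0.00 over all genes, and 5 of 9 had an unadjusted p under 0.05, as had 10.9% of all genes. Replicate 15 at 22 months stood apart, with 253 CPM of Gad2, 14.2 of Pvalb, 21.5 of Calb2 and 99.3 of Lamp5. The other 22-month mice had 146 and 154 CPM of Gad2, 61.3 and 57.6 of Pvalb, 6.69 and 9.19 of Calb2 and 258 and 250 of Lamp5. This library was among those low in own-region markers, and its striatal neuron genes summed to 1720 CPM against a median of 740. Without it, the changes went from 0.32 to 0.03 for Gad2, from 0.78 to 0.13 for Calb2, from -0.66 to -0.23 for Pvalb, from -0.45 to -0.11 for Lamp5, from -0.43 to -0.28 for Npy and from -0.37 to -0.19 for Vip, while Cck went from -0.53 to -0.63. No member passed in either case.

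In the hippocampus, Calb2 had 30.4, 37, 56.3 and 62.1 CPM at 18 months and 4.95, 9.13 and 41.5 at 22 months in PBS mice, a change of -1.26 ± 0.50 (adjusted p = 0.559). The groups overlap through replicate 21, and without it the change was -2.67 (adjusted p = 0.0916). Pvalb had 16.8 to 18.4 CPM at 18 months and 22.3 to 32 at 22 months, without overlap (0.60 ± 0.28, adjusted p = 0.621). These 18-month PBS mice also lay below naive (22.3 to 31.3 CPM) and plasma (21.1 to 26.8) mice of 18 months, without overlap. In the second experiment, PBS mice of 18 months had 24 to 30.2 CPM. Of the 18-month PBS mice of the first experiment, replicates 5 and 11 had hippocampal libraries among those low in own-region markers. Gad1 and Gad2 had fitted log2 changes under 0.1 in size. In CPM, Gad2 had 136 to 146 at 18 months and 121 to 134 at 22 months, without overlap.

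Young plasma was compared with PBS at 18 and 22 months after 7 days and at 19 months after 24 days. Across these 9 comparisons in the first experiment and the 1 in the second, no gene of the whole table passed (0% in each), members included. PBS against no injection at 18 months likewise gave 0% in all 3 regions. At an unadjusted p under 0.05 lay 0 to 2 of the 9 members in each of these 13 comparisons, beside 1.68% to 7.96% of all genes. DESeq2 and limma-voom called no member in them either. The plot of changes by comparison shows their spread, which is widest for the scarce transcripts in the cerebellum.

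**Figure D3:**
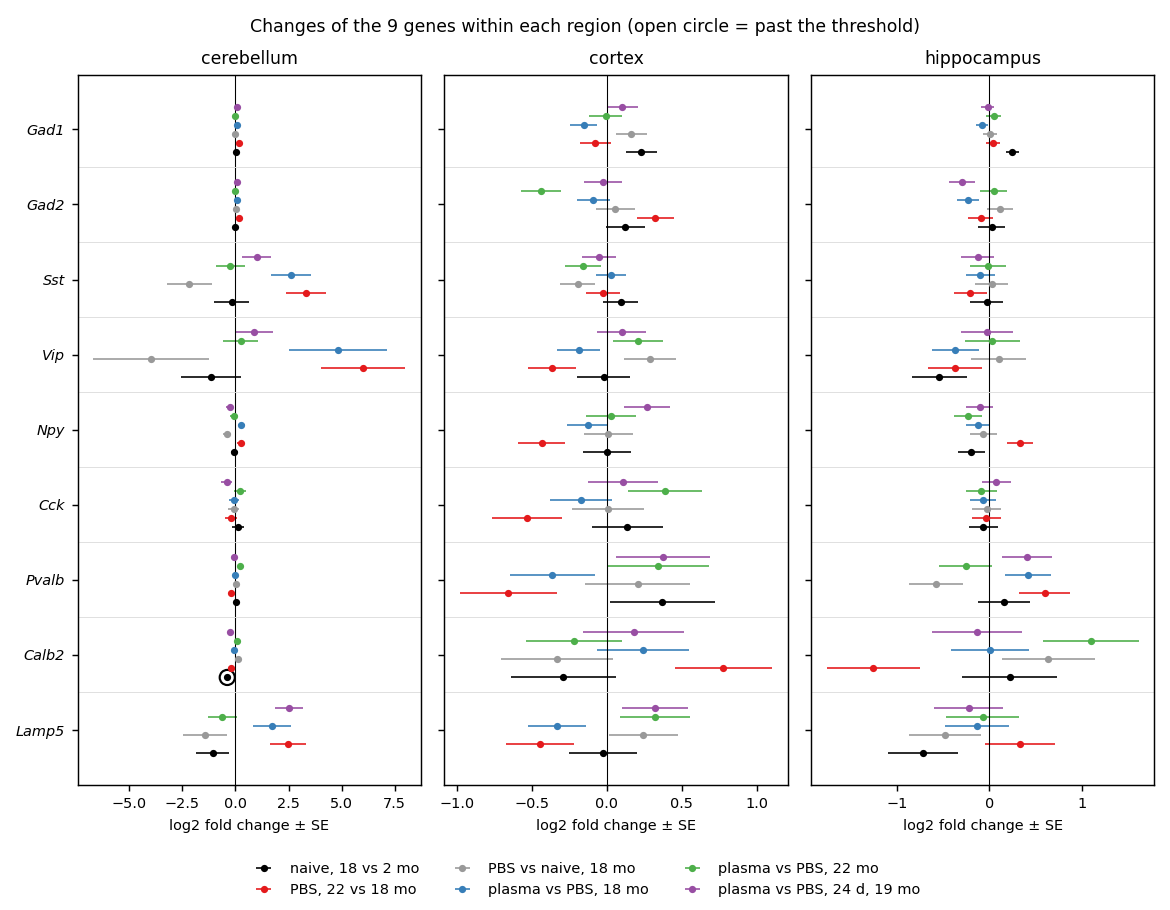
Log2 fold changes ± SE of the 9 genes in 6 comparisons within the cerebellum, cortex and hippocampus, with a separate axis range for each region. Only Calb2 in the cerebellum with age, marked by an open circle, passed the threshold. The wide bars of Vip, Sst and Lamp5 in the cerebellum go with levels near 0 CPM.

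For the GABA-synthesis genes, the plasma change at 18 months was -0.15 ± 0.09 for Gad1 in the cortex and -0.23 ± 0.12 for Gad2 in the hippocampus, where the second experiment gave 0.03 ± 0.14 for Gad2. In the cortex at 22 months, Gad2 had 122, 139 and 147 CPM with plasma and 146, 154 and 253 with PBS (-0.44 ± 0.13, adjusted p = 0.846). The high PBS value is that of replicate 15 above, without which the change was -0.15. In the hippocampus of long PBS mice, replicate 24 had 241 CPM of Gad2 and 8.32 of Pvalb, against 125, 127 and 131 of Gad2 and 20, 21.5 and 39.7 of Pvalb in the other 3. Its striatal neuron genes summed to 787 CPM, against a median of 178 in the hippocampus. Long plasma mice had 120 to 132 CPM of Gad2, and the change was -0.30 ± 0.14 (adjusted p = 1).

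For the peptides, the cerebellar Sst change with plasma at 18 months was 2.63 ± 0.95 (adjusted p = 1). The plasma mice had 0.919, 3.36, 3.85, 16.1 and 19.2 CPM, so that 2 of 5 stood high, and the same 2 mice had 58.3 and 58.9 CPM of Slc17a6 against 8.88 to 21.2 in the other 3. In the hippocampus of the second experiment, Sst was 240 ± 54.8 CPM (SD, n = 5) with plasma and 196 ± 28.9 (SD, n = 4) with PBS (0.33 ± 0.16, adjusted p = 0.641). In the first experiment, the means were 219 ± 25.1 (SD, n = 5) and 235 ± 34.2 (SD, n = 4), a change of -0.10. Npy gave 0.29 ± 0.13 in the second experiment and -0.13 in the first. In a joint fit of both experiments, Sst changed by 0.11 and Npy by 0.08 (adjusted p = 0.786 and 0.851). Lamp5 in the cerebellum of long plasma mice had 1.58, 2.83 and 16.4 CPM, against 0, 0.239, 1.6 and 1.74 with PBS (2.52 ± 0.68, adjusted p = 0.674).

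The mice of a group also differed among themselves, and the genes moved together in different ways by region. As a description over 29 libraries that share their dissection, depth and scaling, the deviations of log2(CPM + 1) from group means were correlated for the 36 pairs of members. In the cortex, 7 pairs had Pearson's r above 0.6 and 7 below -0.6, in the cerebellum 2 and 1, and in the hippocampus 2 and 1. The share of all gene pairs beyond these limits was not determined, so the counts are not shown to be particular to these genes. In the cortex, Pvalb and Lamp5 had r = 0.943 (Spearman's rho 0.91), and r = 0.904 without the 2 libraries farthest from the median of Pvalb. Npy went with both (r = 0.861 with Pvalb and 0.824 with Lamp5), and Calb2 ran opposite (r = -0.832 with Pvalb and -0.828 with Lamp5). With the striatal sum, r was -0.285 for Pvalb (rho -0.157, and -0.103 without 2) and -0.429 for Lamp5 (rho -0.358, and -0.3 without 2). The library lowest in both Pvalb and Lamp5, 22-month PBS replicate 15 (14.2 and 99.3 CPM), had the high striatal sum given above. The sum was 1780 CPM in 18-month plasma replicate 10 (35.7 and 147) and 1830 in naive 18-month replicate 6 (37.1 and 178). It was 892 in naive 2-month replicate 14 (28 and 165) and 885 in 18-month plasma replicate 1 (44.4 and 183). Other libraries with such sums were not low in Pvalb: 18-month plasma replicate 7 had a sum of 1610 (61.9 and 216) and naive 18-month replicate 9 a sum of 865 (68.6 and 260). The cortical median of the sum was 740 CPM, and naive 2-month replicate 14 was among the libraries low in own-region markers.

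**Figure D4:**
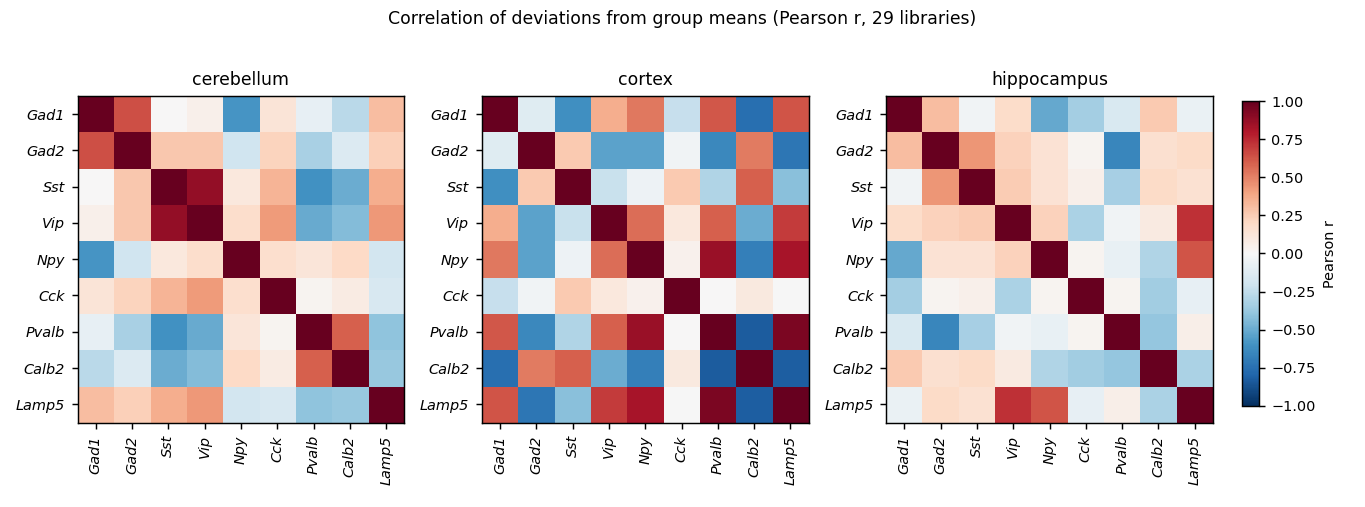
Pearson's r between the 9 genes in the cerebellum, cortex and hippocampus, over the deviations of log2(CPM + 1) from group means in 29 libraries each. Red is positive and blue negative; the cortex holds a block of Npy, Pvalb and Lamp5 that runs opposite to Calb2, and in the cerebellum Sst and Vip stand out.

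In the cerebellum, Sst and Vip had r = 0.882 (rho 0.9, and 0.885 without the 2 libraries farthest from the median of Sst). Vip had 0 counts in 12 of these 29 libraries, so that this r rests on values near 0 CPM. Sst with Slc17a6 gave r = 0.917 (rho 0.908, and 0.899 without 2), and with the summed granule cell genes r = -0.808 (rho -0.8, and -0.744). Pvalb and Calb2 ran with each other (r = 0.597), with the granule cell sum (0.654 and 0.668) and opposite to Slc17a6 (-0.702 and -0.562). Gad1 and Gad2 had r = 0.648 in the cerebellum, but 0.296 without the 2 libraries farthest from the median of Gad1. In the hippocampus, Vip and Lamp5 had r = 0.733 (0.475 without 2), and Vip ran opposite to the hippocampal excitatory genes (r = -0.867, and -0.808 without 2). Gad2 went with the striatal sum in the hippocampus (r = 0.811, rho 0.563, and 0.588 without 2) and in the cortex (r = 0.688, rho 0.799, and 0.8 without 2).

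**Figure D5:**
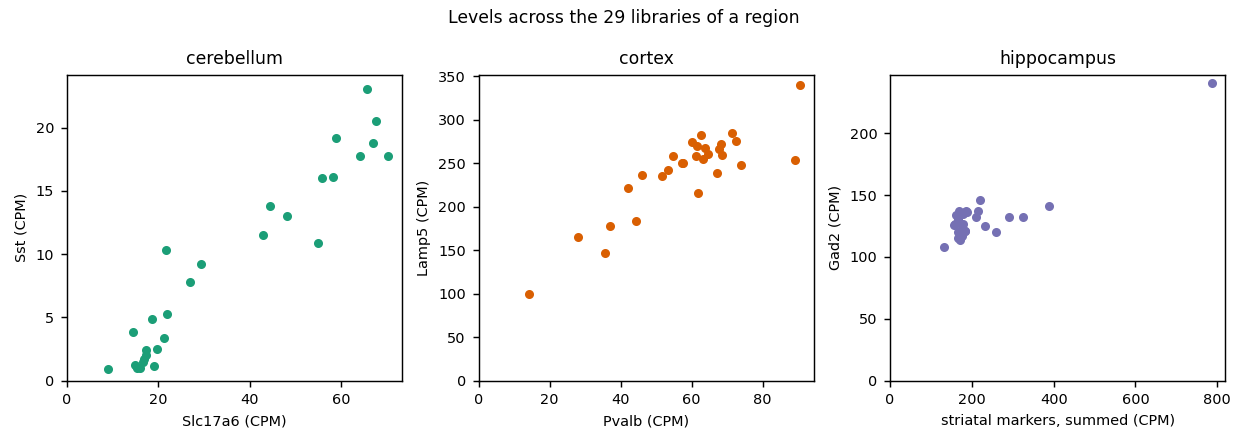
CPM of Sst against Slc17a6 in the cerebellum, of Lamp5 against Pvalb in the cortex and of Gad2 against the summed striatal neuron genes in the hippocampus. Each point is 1 of 29 libraries. The first and second panels show graded relations, and the third rests largely on the library with 241 CPM of Gad2.

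Genes most like each member were sought among those with a mean of at least 5 CPM in the region, without members and clone names. They were named by r of deviations from group means (29 libraries), here of log2 CPM with a prior count of 2 added. In the cortex, genes most like Pvalb included Hlf (r = 0.941) and Dusp3 (0.938), and those most like Lamp5 included Kcnab3, a potassium channel subunit (0.963), and Hlf (0.958). Calb2 was closest to Cdo1 (0.913), Sst to Tmsb10 (0.913), Cck to Rprml (0.921), Npy to Pantr1 (0.881), Gad1 to Rcan2 (0.882), Vip to Ociad2 (0.86) and Gad2 to Cacng4 (0.85). In the hippocampus, Lamp5 was closest to R3hdm1 (0.935), Vip to Rasgef1b (0.924), Sst to Chga, a protein of secretory granules (0.867), Calb2 to Tcerg1l (0.864), Pvalb to Foxn3 (0.849), Cck to Rprml (0.811), Gad1 to Hsdl1 (0.772) and Npy to Cacna1a (0.752). Gad2 was closest to Gnal, a G protein subunit abundant in the striatum (0.844). Rprml was the closest gene to Cck in both regions.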

How the data were processed

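Per the labels' protocols, RNeasy-purified RNA went through Smart-Seq2 amplification and Nextera XT tagmentation, which keep no strand. The submitters' processing notes list Trim Galore 0.3.7, STAR 2.5.3a, DESeq2 and GRCm38; the counting tool and annotation are not given in the sources used here. The deposited table holds raw counts per gene symbol, not normalized. The members, marker lists and tests were chosen with earlier results of these data known.

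Counts were analysed in R 4.3.3 with edgeR 4.0.16 (TMM, filterByExpr with a minimum count of 10 and total of 15, quasi-likelihood test), 29 libraries per region, 9 for the second experiment and 87 for differences between regions. DESeq2 1.42.0, limma-voom with sample quality weights (limma 3.58.1), other size factors, no filter, fits of the compared groups alone, a striatal covariate, both experiments together, the mouse as a block and omitted libraries were alternatives. The scripts were tested on simulated data. Exon lengths and coordinates came from GENCODE M21 (GRCm38), and all 9 symbols matched.

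Named genes were all 9 members, up to 3 genes per list and comparison past the threshold, and the 3 genes most like each member in the cortex and hippocampus, of which some are not reported here; others were chosen after their values were seen. Animal numbers in the labels tie the regions of a mouse together. The median correlation of deviations from group means was 0.0526 between cortex and cerebellum, 0.0534 between hippocampus and cerebellum and 0.0803 between hippocampus and cortex.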

Additional observations from a re-analysis of the deposited data

Results flagged for a closer look

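Of 126 groups of 4 or 5 mice, one for each gene, region and group of that size, 14 held a highest or lowest mouse that stood apart from the rest by Dixon's criterion, which chance alone meets in about 1 in 20 groups. For the GABA-synthesis enzymes, Gad1 was low in the cerebellum of 18-month PBS replicate 2 (451 CPM, a library of 1029695 counts) and high in the hippocampus of plasma replicate 76 of the second experiment (429 CPM). Gad2 was high in the cortex of 18-month PBS replicate 2 (171 CPM), and in the hippocampus of PBS replicate 68 (166 CPM) and plasma replicate 76 (201 CPM) of the second experiment, of long PBS replicate 24 (241 CPM) and of 18-month plasma replicate 7 (137 CPM). For the peptides, Sst was high in the cerebellum of 18-month PBS replicate 2 (4.86 CPM) and low in the hippocampus of 18-month plasma replicate 10 (175 CPM). Vip was high in the hippocampus of PBS replicate 69 of the second experiment (37.1 CPM). Calb2 was high in the cerebellum of long PBS replicate 24 (598 CPM) and in the cortex of naive 2-month replicate 14 (19.8 CPM). Lamp5 was high in the hippocampus of 18-month PBS replicate 5 (44.6 CPM) and of naive 2-month replicate 14 (182 CPM).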

How the results depend on the processing

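Over 3163 member values under alternatives, none reversed a called direction and 3150 kept their side of the threshold; 209 values past no threshold changed sign. In the cerebellum of PBS mice of 22 against 18 months, 2 members passed without the filter on low counts, beside 312 of 25985 genes. In a fit of the compared groups alone, 2 members passed, beside 483 of 16380 genes. The main fit gave 0 members, beside 27 of 17185 genes. For the cerebellar age change, leaving out each library gave 0 to 1 members. Gad2 between hippocampus and cerebellum passed under limma-voom with sample quality weights (-0.08) and without the long PBS group (-0.11); the cause was not tested. With the mouse as a replicate block, 8 members passed in each region difference (for Gad2 between hippocampus and cortex, -0.10) and 0 in each difference of the age change, and no call changed. No paired analysis was possible within a region because its groups share no animal. Groups of 3 to 5 mice and levels near 0 CPM in the cerebellum limit what could be detected, and duplicates from PCR cannot be told apart.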
